A study of Mus musculus with 11 samples.

Results

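Plasma cell lymphomas (PCL) were compared with Burkitt lymphomas (BL) that arose in mice with the same oncogene, gene by gene and tumour by tumour. The comparison used the 4 tumours labelled as plasma cell lymphoma and the 4 labelled as Burkitt lymphoma, 8 of the 11 tumours in the series. The other 3 tumours, mantle cell lymphomas, entered the fit only to help estimate the spread. Both groups were lymph node tumours, labelled as of the mature B cell stage, from Black 6 mice of the genotype c-myc-3'RR/p53+/-. Every tumour therefore shared a c-myc transgene driven by the 3' control element of the gene for antibody heavy chains (3'RR), which is active in B cells, and the loss of one p53 copy. No treatment is labelled, and the ages of the mice are not given in the sources used here. Each tumour gave 0.2 micrograms of total RNA, with an integrity number of 9 or 10, to 1 single-colour expression array. Whether the tumours came from separate mice is not labelled, so p-values measure only how these samples vary, which may be technical. The 4 PCL arrays shared a slide and the 4 BL arrays shared another, so slide and lymphoma type cannot be told apart. RNA came from whole tumour tissue, in which fewer cells of a type and less RNA per cell cannot be told apart.

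Plasma cells are the antibody-secreting end stage of the B lineage. Under the transcription factors encoded by Prdm1, Irf4 and Xbp1 they enlarge the endoplasmic reticulum (ER), display syndecan-1 (Sdc1) and shut down much of the machinery by which B cells sense antigen. Burkitt lymphoma is a fast-dividing tumour with features of germinal centre B cells that keeps its B cell receptor, and in people it is defined by translocations that activate MYC.

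A level is the log2 of an array's processed signal minus the log2 of that array's 75th percentile. A difference is the mean of PCL minus the mean of BL on that log2 scale, with its standard error (SE). A gene was called when the adjusted p of limma, over 18496 genes, fell under 0.05. The 75th percentile lay between 1124 and 1632 intensity units, 55.5% to 62.9% of spots were well above background, and none was saturated. One tumour stood apart: PCL1 correlated with the other PCL tumours at 0.946 on average and with the BL tumours at 0.953, whereas PCL2, PCL3 and PCL4 correlated with their own type at 0.967 to 0.97. Results that rest on PCL1 are therefore given with and without it. Because PCL1 was picked out from these same values, p-values without it are descriptions and are likely too small.

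Both groups carried B lineage transcripts. Cd79b, a signalling chain of the B cell receptor, lay at 6.12 to 7.37 in PCL and 6.77 to 7.06 in BL. Sdc1 lay at -3.25, -0.32, -1.02 and -0.75 in PCL1 to PCL4 and at -4.19, -3.16, -4.88 and -5.26 in BL1 to BL4. PCL1 fell inside the BL range, and the difference of 3.04 missed the threshold (adjusted p = 0.066; 3.68, adjusted p = 0.0086, without PCL1). Jchain, the joining chain of secreted antibody, was higher in every PCL tumour than in every BL tumour but varied widely (difference 4.38, adjusted p = 0.0997). The drivers Prdm1 (1.68, adjusted p = 0.136), Irf4 (0.30, adjusted p = 0.714) and Xbp1 (0.36, adjusted p = 0.567) were not called, and Tnfrsf17, a plasma cell receptor, did not pass the filter on dim probes. On the BL side, the germinal centre gene Bcl6 (0.39, adjusted p = 0.744) was not called either. By these markers the arrays separated the labels only in part. Myc, the oncogene of the model, lay at 4.12 to 5.34 in PCL and 3.90 to 4.91 in BL (difference 0.26, adjusted p = 0.703; -0.01 without PCL1 and under scaling to the array median), and Trp53 differed by 0.58 (adjusted p = 0.658; 1.16, adjusted p = 0.17, without PCL1), with overlapping tumours for both.

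At the threshold 136 genes were called, 0.735% of those tested: 87 were higher in PCL (0.47%) and 49 lower (0.265%). Of 12843 tested genes with a gene name 113 were called (0.88%), of which 68 rose (0.529%) and 45 fell (0.35%). In each of the 136 the 4 PCL tumours lay wholly above or wholly below the 4 BL tumours, which 11.2% of all tested genes showed (6.53% higher and 4.67% lower in PCL). In 129 of them the types also differed by 2-fold or more, a separation seen in 3.83% of all genes (2.23% higher and 1.6% lower). The rises were larger than the falls, with a median difference of 2.80 (6.95-fold) against -1.53 (2.88-fold). They were also dimmer: a mean level below the median of all genes was found for 72 of the 87 and 23 of the 49. Whether signal level accounts for the larger rises was not tested. Of the genes that rose, 13 were not well above background on any BL array and 46 were above it on all 4; of those that fell, 42 were above background on all 4 PCL arrays. A gene that passed the filter on dim probes only through the type in which it was bright had to differ, so the counts of genes seen in one type are descriptions. Leaving out any of PCL2 to PCL4 or BL2 to BL4 cut the calls to between 10 (without PCL2) and 56 (without BL4). Leaving out PCL1 raised them to 1120 (6.06%), 557 higher (3.01%) and 563 lower (3.04%), and all 136 remained called. Among those 557, PCL1 lay above every BL tumour in 285, within the BL range in 205 and below every BL tumour in 67. The split of calls depended on scaling: 64.0% of calls were higher in PCL as reported, against 18.1% of 642 when each array was set to its median, 47.9% of 121 after quantile normalisation, 46.7% of 15 with another background correction and 50% of 168 in the authors' deposited values. Median scaling moved the median difference of all genes from 0.08 to -0.18.

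**Figure D1:**
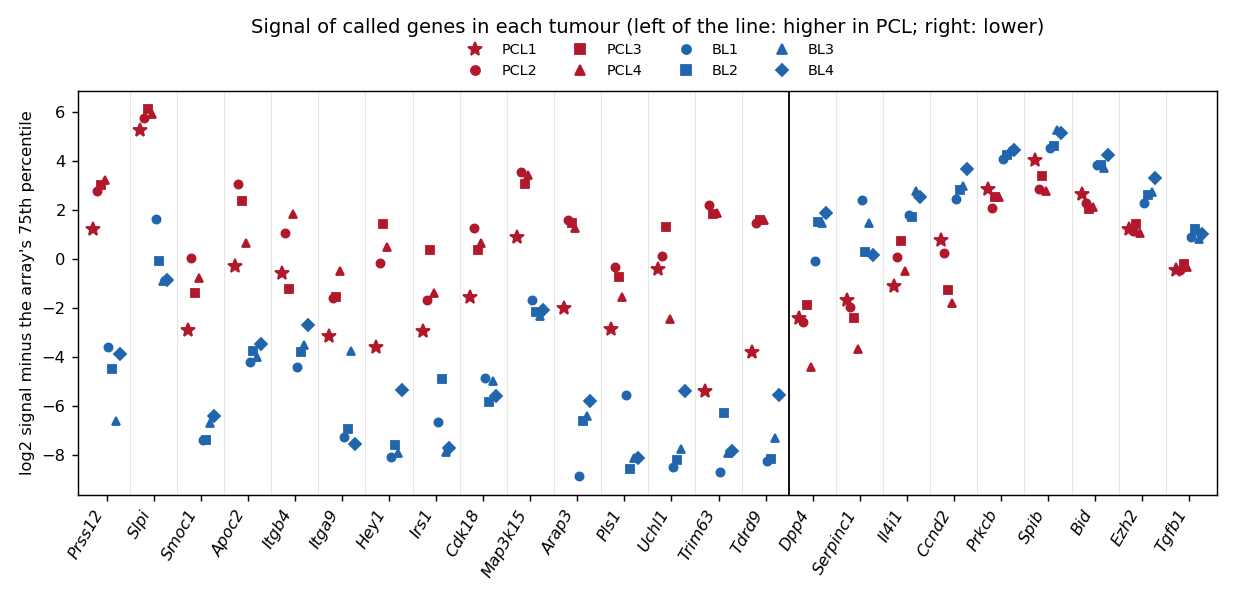
Level of 24 called genes (log2 signal minus the log2 of the array's 75th percentile, vertical axis) in each PCL tumour (red, PCL1 as a star) and each BL tumour (blue). Genes left of the dividing line rose in PCL and genes right of it fell; in no gene do the colours overlap, and for Trim63 PCL1 sits at -5.40, far below the other PCL tumours.

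Several genes that rose encode secreted proteins. Prss12, which encodes the secreted serine protease neurotrypsin, lay at 1.24, 2.77, 3.02 and 3.22 in PCL1 to PCL4 and at -3.59, -4.49, -6.62 and -3.90 in BL1 to BL4. PCL1 was the lowest PCL tumour but still stood far above every BL tumour (difference 7.21, SE 0.68, 148-fold, adjusted p = 0.0072). Slpi, a secreted inhibitor of leukocyte proteases, was bright and even in PCL, at 5.29, 5.75, 6.11 and 5.91, against 1.64, -0.09, -0.91 and -0.85 in BL. Its lowest PCL tumour exceeded its highest BL tumour, and it rose 56.3-fold (difference 5.82, SE 0.87, adjusted p = 0.0243). Apoc2, the lipoprotein cofactor of lipoprotein lipase, lay at -0.30, 3.06, 2.37 and 0.66 in PCL and -4.21 to -3.47 in BL (difference 5.31, SE 0.64, adjusted p = 0.0109). Smoc1, the gene of a secreted matrix protein, stayed near background in all BL tumours, and its PCL level was at least 29.1-fold higher (adjusted p = 0.0296). Such a bound is used where no array of the dimmer type had the probe well above background. It divides the bright mean by a floor, for which every dim array gave either the probe's own value or the weakest signal it held well above background, whichever was larger. The bound holds for the processed signal only, and other background treatments can give a smaller fold. Of the 23 measured extracellular proteases and inhibitors, 17 were higher in PCL, beside 58.1% of all genes. Their median difference was 0.44 against 0.08 over all genes. Prss12 and Slpi rose and Dpp4 fell. Without PCL1, when 6.06% of all genes were called, the list had 2 further calls. Both were of protease inhibitor genes and were named after their values were seen: Timp2 was higher (2.56, adjusted p = 0.0403) and Serpine2 lower (-3.17, adjusted p = 0.0291).

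The integrins are paired receptors that anchor cells to matrix and to each other. Of 20 measured subunits 13 were higher in PCL (median difference 0.54), a share near the 58.1% of all genes. Itgb4, the partner of the laminin receptor, lay at -0.58, 1.08, -1.24 and 1.82 in PCL and -4.42, -3.81, -3.51 and -2.70 in BL, with no overlap (difference 3.88, adjusted p = 0.0296). Itga9 also rose, by 4.70 (adjusted p = 0.0422), although BL3, at -3.78, was much closer to PCL1, at -3.14, than the other BL tumours were. Without PCL1, when 3.01% of all genes were called higher, the calls among integrins grew from 2 to 7, all higher. They included Itgb5 (2.70, adjusted p = 0.0548 with all tumours). The tumour medians of the integrins, after the mean of each gene across the 8 arrays was subtracted, were 0.41, 0.44 and 0.56 in PCL2 to PCL4 but -0.02 in PCL1, against -0.53 to 0.04 in BL.

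Signalling genes that rose covered several pathways. Hey1, a repressor switched on by Notch receptors, lay at -3.60, -0.16, 1.44 and 0.49 in PCL and -8.08, -7.62, -7.93 and -5.37 in BL (difference 6.79, SE 0.99, adjusted p = 0.0222). Its relative Hes5 pointed the other way, at a difference of -3.32, but was not called (adjusted p = 0.0713, and -4.13, adjusted p = 0.0047, without PCL1). Whether Notch targets moved together was not tested. Of 27 measured Notch pathway genes 17 were higher in PCL, near the 58.1% of all genes, and Hey1 was the only one called. Irs1, the adaptor of the insulin and IGF1 receptors, rose by 5.38 (adjusted p = 0.0296). Map3k15, a kinase at the head of stress-activated cascades, lay at 0.91, 3.53, 3.08 and 3.43 in PCL and within -2.35 to -1.68 in BL (difference 4.82, SE 0.54, adjusted p = 0.0095). Cdk18, a cyclin-dependent kinase outside the core cell cycle, rose by 5.50 (adjusted p = 0.0296). The death receptor gene Tnfrsf21 rose by 4.32 (adjusted p = 0.019) and Ffar4, a receptor for long-chain fatty acids, was at least 16.3-fold higher (adjusted p = 0.0491).

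Some of the genes that rose are best known from other tissues. Uchl1, a deubiquitinase abundant in neurons, lay at -0.40, 0.13, 1.30 and -2.45 in PCL and -8.49, -8.23, -7.76 and -5.39 in BL, at least 50.5-fold higher (adjusted p = 0.0104). Its relatives Uchl3 (0.16) and Uchl5 (0.08) differed little and were not called. Trim63, a ubiquitin ligase of muscle, lay at 1.84 to 2.21 in PCL2 to PCL4 but at -5.40 in PCL1, and was at least 76.3-fold higher over the whole group (adjusted p = 0.0479). Tdrd9, a helicase of the piRNA pathway that silences transposons in germ cells, had the same pattern, at -3.81 in PCL1, 1.46 to 1.59 in the other PCL tumours and -8.27 to -5.55 in BL (at least 76.6-fold, adjusted p = 0.029). Rd3l, which was bright, lay at 3.38, 5.84, 5.87 and 6.31 in PCL and -1.64, -0.76, 0.04 and 1.62 in BL (difference 5.54, adjusted p = 0.0411). In Trim63, Tdrd9 and Rd3l PCL1 was the lowest PCL tumour, above every BL tumour but nearer to the closest of them than to its own type. Ccdc38 (4.98, adjusted p = 0.0468), Maged1, of a family first known from tumour antigens (1.92, adjusted p = 0.0243), and the kinesin gene Kif13a (at least 7.66-fold, adjusted p = 0.0472) rose too. Of the 36 piRNA and germline genes listed, 14 were measured, and Tdrd9 was the only one called. Among the 14, 11 were higher in PCL, beside 58.1% of all genes.

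Cytoskeletal genes moved in both directions. Arap3, which restrains small GTPases of the cytoskeleton downstream of PI3K, lay at -2.02, 1.59, 1.46 and 1.27 in PCL and -8.88 to -5.80 in BL. By its brightest probe it was at least 103-fold higher (difference 7.51, adjusted p = 0.0186), while another of its probes differed by 3.39. The brightest probe differed by 4.92 in the authors' deposited values and by 4.47 with another background correction. The bound therefore holds only for the processed signal. Pls1, an actin-bundling plastin, rose by 6.23 (SE 0.70, adjusted p = 0.0095), and its blood-cell relative Lcp1 differed by 0.17. In the opposite direction, the formin gene Daam2 had a BL level at least 3.09-fold that of PCL (difference -3.73, adjusted p = 0.0427), and Itpka, an inositol kinase that also binds actin, fell by 2.55 on the log2 scale (adjusted p = 0.0444). Among 40 measured genes of actin bundling and its regulation 22 were higher and 18 lower, with a median of 0.05, close to that of all genes.

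The RefSeq table of mouse promoters (build GRCm38.p6) held 94 of the 113 called and named genes. Both strands of the 250 bases before each gene's start were searched for 4 motifs, each counted on its own, so that matches of different motifs may overlap. CACGTG, the E-box that Myc and other helix-loop-helix factors can bind, stood in 7 of 64 promoters (10.9%) of genes that rose, in 0 of 45 of genes that fell, and in 6.02% of all 32851 promoters in the table. Some genes have more than 1 promoter there. The core of sites for the Notch effector RBPJ, spelled TGGGAA, stood in 25% of promoters of genes that rose, 26.7% of those of genes that fell and 21.6% of all. The AP-1 site TGACTCA stood in 1.56%, 4.44% and 4.46%, and the ATF core TGACGT in 4.69%, 8.89% and 6.47%, in the same order. The 4 promoters below belong to genes described above that rose and hold CACGTG, and are shown because the oncogene common to both lymphomas encodes an E-box factor. Capitals mark the motifs found, and each sequence runs 5′ to 3′ on the strand of its gene. They lie at chr2:164356508-164356757 on the minus strand (Slpi, motif starting 146 bases before the gene's start), chr12:111971309-111971558 on the plus strand (Tdrd9, 165 and 95 bases before it), chr1:132139686-132139935 on the minus strand (Cdk18, 32 bases before it, with TGGGAA on the opposite strand 136 bases before it) and chr1:82291440-82291689 on the minus strand (Irs1, 115 bases before it).
Slpi: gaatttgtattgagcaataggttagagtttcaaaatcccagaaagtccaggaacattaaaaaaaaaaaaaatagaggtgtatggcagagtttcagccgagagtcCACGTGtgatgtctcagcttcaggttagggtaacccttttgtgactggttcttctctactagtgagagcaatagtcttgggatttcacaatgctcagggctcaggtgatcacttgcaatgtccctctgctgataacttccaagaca
Tdrd9: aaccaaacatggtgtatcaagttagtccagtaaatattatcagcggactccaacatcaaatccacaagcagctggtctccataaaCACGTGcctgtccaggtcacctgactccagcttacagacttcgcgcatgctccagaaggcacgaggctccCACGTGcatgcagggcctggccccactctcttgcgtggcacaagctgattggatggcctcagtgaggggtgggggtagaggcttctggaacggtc
Cdk18: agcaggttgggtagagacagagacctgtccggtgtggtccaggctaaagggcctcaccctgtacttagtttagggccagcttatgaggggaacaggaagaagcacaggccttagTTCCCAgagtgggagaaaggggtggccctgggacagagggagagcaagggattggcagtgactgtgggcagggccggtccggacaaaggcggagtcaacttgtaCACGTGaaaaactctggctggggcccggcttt
Irs1: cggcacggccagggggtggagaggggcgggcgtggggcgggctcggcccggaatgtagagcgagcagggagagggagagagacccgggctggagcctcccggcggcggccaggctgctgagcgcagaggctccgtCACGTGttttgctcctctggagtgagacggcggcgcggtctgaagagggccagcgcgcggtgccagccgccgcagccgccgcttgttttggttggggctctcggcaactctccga
These matches describe letters in these windows, and binding was not measured.

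Other genes that rose serve protein folding, chromatin and metabolism. Pdia3, the ER disulfide isomerase that also assists MHC class I folding, lay at 2.25, 2.40, 2.64 and 2.01 in PCL and 1.09, 1.56, 1.26 and 0.97 in BL, a rise of 2.15-fold (difference 1.10, SE 0.21, adjusted p = 0.0491). Kdm5b, a histone H3 lysine demethylase, lay at 0.42, 1.44, 1.75 and 1.82 in PCL and -1.40, -0.21, -1.57 and -1.38 in BL (difference 2.50, adjusted p = 0.0312). A histone H2B gene, H2bc4, rose by 2.04 (adjusted p = 0.0412), while the 58 measured histone genes split evenly by count, 29 higher and 29 lower. At an unadjusted p under 0.05, 9 of them were higher and 2 lower, beside 10.4% and 7.56% of all genes. Without PCL1, 4 were called, all higher, beside 3.01% of all genes called higher. The metabolic genes Cox6a2, a subunit of cytochrome c oxidase (3.38), Aldh1b1, a mitochondrial aldehyde dehydrogenase (3.8), and Slc3a1, an amino acid transporter subunit (2.32, adjusted p = 0.0186), were called higher as well. Slc3a1 was the only one called of 246 measured solute carriers. Among these, 163 were higher in PCL (median 0.20, and -0.07 when arrays were set to their median), beside 58.1% of all genes.

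Some of the genes that fell are known from B cells. Prkcb, the protein kinase C that links the receptor to NF-kB, lay at 2.87, 2.09, 2.53 and 2.52 in PCL and 4.10, 4.24, 4.43 and 4.44 in BL (difference -1.80, SE 0.22, 3.48-fold lower, adjusted p = 0.0109). The tumours of each type were tightly grouped and PCL1 stood only slightly nearer to BL. Spib, an ETS factor of mature B cells, lay at 4.03, 2.84, 3.40 and 2.79 in PCL and 4.54 to 5.26 in BL, a fall of 1.63 on the log2 scale (adjusted p = 0.0427). Ly6d, a surface protein of B lineage cells, lay at 5.24, 4.54, 4.58 and 4.65 in PCL and 6.06 to 6.40 in BL (difference -1.43, adjusted p = 0.0243). Il4i1, an amino acid oxidase induced in B cells by interleukin-4, fell by 2.41 (adjusted p = 0.0349). Other B lineage genes did not pass: Pax5, the factor that maintains B cell identity, differed by 0.02 (adjusted p = 0.979), and Ms4a1, which encodes CD20, by -1.53 (adjusted p = 0.0971; -1.91, adjusted p = 0.0115, without PCL1).

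Surface and secreted proteins that fell included 3 with large differences between the means. Dpp4, the membrane dipeptidase CD26, lay at -2.41, -2.60, -1.87 and -4.40 in PCL and -0.10, 1.52, 1.47 and 1.86 in BL, 16.1-fold lower in PCL (difference -4.0, SE 0.56, adjusted p = 0.0186). Serpinc1, which encodes antithrombin, fell by 3.5 (adjusted p = 0.0479). Btnl1, a butyrophilin-like gene, had a BL level at least 3.59-fold that of PCL (adjusted p = 0.032). Its difference of -3.16 shrank to -1.36 in the authors' deposited values and to -0.56 with another background correction, and it was called in neither. Its nearest tumours were PCL1 at -6.12 and BL1 at -5.04. Tgfb1, a cytokine that restrains lymphocyte growth, differed less but with little spread, at -0.45, -0.44, -0.21 and -0.32 in PCL and 0.89, 1.21, 0.79 and 1.03 in BL (difference -1.34, SE 0.14, adjusted p = 0.0095). PCL1 could not be told from its group there. Sema7a, a membrane-anchored semaphorin, fell by 1.81 (adjusted p = 0.0427). Apba1, an adaptor of neuronal vesicles, fell by 2.58 (adjusted p = 0.0296), Syne3, which ties the nuclear envelope to the cytoskeleton, by 2.37 (adjusted p = 0.0458), and Rtkn2 had a BL level at least 2.03-fold that of PCL (adjusted p = 0.032).

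Single regulators of the cell cycle, cell death and chromatin fell, 1 of each list that holds them. Ccnd2, a D-type cyclin that drives entry into division, lay at 0.79, 0.25, -1.28 and -1.82 in PCL and 2.43, 2.82, 2.97 and 3.67 in BL (difference -3.49, 11.2-fold lower, adjusted p = 0.0296). Its relatives differed in direction: Ccnd1 was at -2.31 (adjusted p = 0.0953; -2.85, adjusted p = 0.0136, without PCL1) and Ccnd3 at 1.02 (adjusted p = 0.181). Bid, which carries death receptor signals to mitochondria, lay at 2.65, 2.27, 2.03 and 2.11 in PCL and 3.84, 3.84, 3.72 and 4.26 in BL (difference -1.65, SE 0.18, adjusted p = 0.0095). Bcl2, its anti-apoptotic relative, differed by -1.36 (adjusted p = 0.183; -1.90, adjusted p = 0.0108, without PCL1). Ezh2, the methyltransferase of Polycomb repressive complexes that is abundant in dividing germinal centre cells, lay at 1.22, 1.16, 1.43 and 1.04 in PCL and 2.28, 2.59, 2.75 and 3.32 in BL (difference -1.53, adjusted p = 0.0415). Its partners Eed (-0.72) and Suz12 (-0.19) and its paralogue Ezh1 (0.53) were not called. Ahnak, a large scaffold protein, fell by 2.13 (adjusted p = 0.0296) and Itpr2, a calcium channel of the ER, by 2.03 (adjusted p = 0.0491).

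The gene lists put these genes beside the rest of their pathways; they were not tested as sets, and each is described by its counts and its median difference, to be read against all genes, of which 58.1% were higher in PCL with a median of 0.08. Across all tested genes 10.4% were higher and 7.56% lower at an unadjusted p under 0.05. B cell receptor signalling leaned to BL: 21 of 24 measured genes were lower in PCL, with a median of -0.43, and Prkcb was the only one called. The list's tumour medians were -0.19, -0.28 and -0.33 in PCL2 to PCL4 and 0.08 to 0.30 in BL, with PCL1 at 0.22, inside the BL range. Without PCL1 there were 4 calls, all lower, beside 3.04% of all genes called lower. They were Prkcb, Malt1, the phosphatase gene Ptpn6 (-1.44, adjusted p = 0.0573 with all tumours and 0.0015 without PCL1) and Inpp5d, the last named after its values were seen. Of the 18 measured NF-kB subunits and targets 15 were lower (median -0.48) and 0 were called by limma, while 8 were lower at an unadjusted p under 0.05. The closest to the threshold were Nfkbid (-1.42, adjusted p = 0.0767), Bcl3 (-1.05, adjusted p = 0.081) and Nfkbie (-1.10, adjusted p = 0.0952). PCL1, at a list median of 0.00, stood between the other PCL tumours, -0.36 to -0.30, and BL, 0.15 to 0.52. Of 23 measured genes of mature B cell identity, 16 were lower (median -0.21, and -0.38 without PCL1) and 1, Spib, was called.

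**Figure D2:**
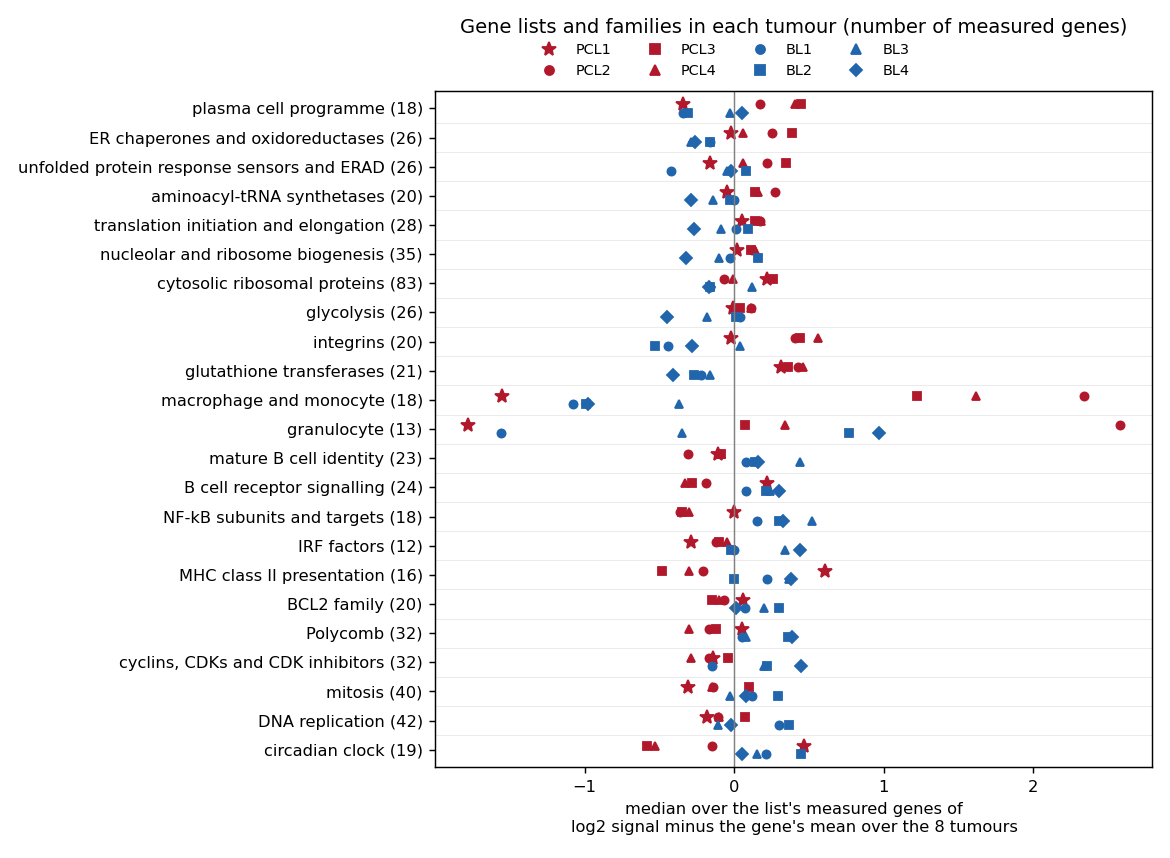
Median level of the genes of each list in each tumour, after the mean of each gene across the 8 arrays was subtracted (log2 units, horizontal axis), for 23 lists; PCL tumours are red, with PCL1 as a star, and BL tumours blue. PCL1 sits among or beyond the BL tumours in B cell receptor signalling, where it lies at 0.22, and in the macrophage list, where it lies at -1.55.

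Lists of B cell stages did not sort the types as their names would. Germinal centre genes were higher in 7 and lower in 8 of 15 (median -0.01, and -0.26 without PCL1). Their median turned to 0.24 without PCL3 and to 0.19 without BL3. In this list Il4i1 fell, while Neil1, a DNA glycosylase, was higher (2.69, adjusted p = 0.0561, and 3.05, adjusted p = 0.0189, without PCL1). Precursor B cell genes split into 6 and 6 (median -0.07, which turned to 0.60 without PCL1 and to 0.30 with array quality weights), with 0 called by limma and 2 higher and 0 lower at an unadjusted p under 0.05. Rag1, which with Rag2 cuts DNA to build antigen receptor genes, lay at -2.02, 2.55, 3.36 and 3.51 in PCL and -8.56, -5.51, -3.04 and -2.18 in BL. The tumours did not overlap, but the spread was wide (difference 6.68, adjusted p = 0.0672; 7.96, adjusted p = 0.0122, without PCL1). Rag2 had PCL1 at -7.46, among the BL tumours, and differed by 4.81 (adjusted p = 0.228; 6.71, adjusted p = 0.032, without PCL1).

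Antigen presentation genes and interferon factors were lower in PCL by count, and none of the lower ones was called. MHC class II presentation genes were lower in 12 of 16 (median -0.32), and 0 were called by limma, with 2 higher and 2 lower at an unadjusted p under 0.05. Their tumour median was 0.61 in PCL1, above every BL tumour (0.00 to 0.38), and -0.48 to -0.21 in PCL2 to PCL4. MHC class I presentation genes were lower in 15 of 20 (median -0.25), and the only call, Pdia3, was higher. The 12 measured interferon regulatory factors, which include activators of B cell and interferon genes, were lower in 9 (median -0.24), led by Irf3 (-0.92, adjusted p = 0.0561) and Irf8 (-1.23, adjusted p = 0.107), with 0 called and 4 lower at an unadjusted p under 0.05. The 4 of these factors on chromosomes 6 and 7 were all lower (median -0.66). Elsewhere 3 were higher and 5 lower, with a median of -0.09.

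Proliferation lists were lower in PCL in count but rarely by call. Among cyclins, CDKs and CDK inhibitors 21 of 32 were lower (median -0.32), with Ccnd2 called and Ccne1 (-1.29, adjusted p = 0.0561) and Cdk6 (-1.68, adjusted p = 0.0587) just outside the threshold. Mitosis genes were lower in 32 of 40 (median -0.25); 0 were called by limma, 7 were lower and 1 higher at an unadjusted p under 0.05, and Foxm1, a factor that activates mitotic genes, came closest (-2.16, adjusted p = 0.0526). The tumours overlapped: PCL3, at a list median of 0.10, lay above BL3 (-0.03) and BL4 (0.08). DNA replication genes were lower in 32 of 42 (median -0.16; 0 called by limma, 6 lower and 0 higher at an unadjusted p under 0.05), led by Pold1, the catalytic subunit of a replicative polymerase (-1.39, adjusted p = 0.0561). PCL3, at a median of 0.07, again lay above BL3 (-0.11) and BL4 (-0.02), and the median was -0.10 without PCL1. Polycomb genes were lower in 25 of 32 (median -0.26), with Ezh2 called and Phc1 next (-1.67, adjusted p = 0.05 when rounded, not called). The BCL2 family split, 8 higher and 12 lower (median -0.09), with Bid called, and Bcl2l12 (-1.18, adjusted p = 0.0563) and Bcl2l13 (-1.08, adjusted p = 0.0796) next. The circadian clock genes were lower in 15 of 19 (median -0.38, and -0.82 without PCL1) with 0 called by limma and 3 lower and 1 higher at an unadjusted p under 0.05; their PCL1 median of 0.47 was above every BL tumour. Dbp, an output gene of the clock, came closest (-1.64, adjusted p = 0.0618).

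Stress and growth signalling gave no call in these lists. Immediate early genes, the first to answer stimuli and stress, split into 12 higher and 12 lower (median -0.02; 0 called by limma, 4 higher and 3 lower at an unadjusted p under 0.05). Within the list Atf3 lay at 2.64, 2.83, 3.45 and 3.30 in PCL and -2.74, 0.61, -0.48 and -1.12 in BL (difference 3.99, adjusted p = 0.0534), and Jun, the core of AP-1, differed by 1.92 (adjusted p = 0.0561). Both had non-overlapping tumours and crossed the threshold without PCL1 (adjusted p = 0.0339 and 0.0319). PI3K, mTOR and MAPK genes were lower in 24 of 41 (median -0.28; 0 called by limma, 2 higher and 10 lower at an unadjusted p under 0.05). Spry1, an inhibitor of growth factor signalling, was higher by 2.00 (adjusted p = 0.0713). Genes of the p53 pathway and its targets split into 18 higher and 13 lower (median 0.11, and -0.16 under median scaling). In this list 0 were called by limma and 4 passed in each direction at an unadjusted p under 0.05. The nuclease gene Aen was at -0.88 (adjusted p = 0.0593) and Trp53inp1 at 1.19 (adjusted p = 0.0794).

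Among 4 lists of the secretory apparatus the folding enzymes leaned to PCL. ER chaperones and oxidoreductases, which fold secreted proteins, were higher in 22 of 26 (median 0.40), with Pdia3 called and Hsp90b1, the ER chaperone GRP94, next (1.11, adjusted p = 0.0618; adjusted p = 0.0139 without PCL1). The tumour medians were 0.06 to 0.39 in PCL2 to PCL4, -0.02 in PCL1 and -0.29 to -0.16 in BL, so all PCL tumours lay above all BL tumours, PCL1 by the least. Without PCL1 there were 5 calls, all higher, beside 3.01% of all genes called higher. They were Pdia3, Hsp90b1, Sdf2l1, Ero1b and Txndc11, the last 2 named after their values were seen. Sensors of unfolded proteins and genes of ER-associated degradation were higher in 15 of 26, about the share of all genes, with a median of 0.33, led by Ube2j1, a ubiquitin-conjugating enzyme of the ER membrane (1.68, adjusted p = 0.0526; adjusted p = 0.0086 without PCL1). In that list 0 genes were called by limma, and 4 were higher and 0 lower at an unadjusted p under 0.05. The other secretory lists did not stand out from all genes: translocon, signal peptidase and oligosaccharyltransferase genes had a median of 0.09 (20 of 32 higher), and ER to Golgi vesicle coat genes one of 0.04 (19 of 33 higher), with 0 called by limma in either and, at an unadjusted p under 0.05, 3 higher and 2 lower in the first and 1 higher and 5 lower in the second. The plasma cell programme itself was higher in 12 of 18 (median 0.30, 0 called by limma, 4 higher and 0 lower at an unadjusted p under 0.05), with PCL1 at -0.34, level with the lowest BL tumour.

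Growth machinery, which Myc is known to drive, leaned slightly to PCL. Cytosolic ribosomal protein genes were higher in 71 of 83, but by a median of only 0.20, which turned to -0.07 when arrays were set to their median. Nucleolar and ribosome biogenesis genes were higher in 27 of 35 (median 0.20, and -0.07 under median scaling), although Nop2, an rRNA methyltransferase, was at -1.01 (adjusted p = 0.054). Translation factors were higher in 22 of 28 (median 0.29), led by the initiation factor gene Eif4b (0.93, adjusted p = 0.084), and aminoacyl-tRNA synthetases in 16 of 20 (median 0.31). None of these 4 lists held a call by limma; at an unadjusted p under 0.05 they held 7, 4, 7 and 3 higher genes and 0, 2, 1 and 2 lower ones, in the order given. Glycolysis genes were higher in 16 of 26 (median 0.22, and -0.05 under median scaling; 0 called by limma, 5 higher and 3 lower at an unadjusted p under 0.05). The list divided within itself: Pgk1 was higher by 0.77 (adjusted p = 0.0589), whereas Hk2, which encodes the first enzyme, was at -0.99 (adjusted p = 0.0767), and Eno1, a later enzyme, was higher by 0.83 (adjusted p = 0.103).

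Gene families grouped by symbol gave few calls. Glutathione transferases, which conjugate toxic compounds, were higher in 16 of 21 (median 0.64), with tumour medians of 0.31 to 0.46 in all 4 PCL tumours, PCL1 included, and -0.41 to -0.16 in BL. None was called by limma, 9 were higher and 0 lower at an unadjusted p under 0.05, and 4 were separated by 2-fold or more, as 2.23% of all genes were in that direction. Mgst2 (3.37, adjusted p = 0.0605), Gsto1 (0.67, adjusted p = 0.0967) and Gstm1 (2.55, adjusted p = 0.0938) led them. TRIM genes, a family of ubiquitin ligases, split into 22 higher and 19 lower, with Trim63 and Trim47 (1.58, adjusted p = 0.0411) called. Zinc finger genes with the symbol Zfp split into 159 higher and 170 lower, with Zfp248 (-1.88) called. The split differed by position: on chromosomes 6 and 7, 83 of 98 were lower (median -0.45). Elsewhere 144 were higher and 87 lower (median 0.12). At an unadjusted p under 0.05, 18 of the Zfp genes were higher and 43 lower, beside 10.4% and 7.56% of all genes. Without PCL1, 4 were called higher and 20 lower, beside 3.01% and 3.04% of all genes. Olfactory receptor genes, which are near background here, were higher in 96 of 110 (median 0.37). Dim genes in general leaned to PCL: in the dimmest of 4 equal groups of genes the median difference was 0.20 with 66.7% higher, against 0.06 in the brightest.

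Markers of other cell types were compared by list, none was called with all tumours, and not every list is printed. All 18 measured macrophage and monocyte markers were higher in PCL (median 1.80, and 2.60 without PCL1), and 0 were called by limma, 8 being higher at an unadjusted p under 0.05. Their tumour medians were 2.34, 1.22 and 1.62 in PCL2 to PCL4, -1.55 in PCL1 and -1.08 to -0.37 in BL. The summed linear signal of the markers, relative to each array's 75th percentile, ran from 3.23 in PCL1 to 33.5 in PCL2, and from 3.36 to 9.69 in BL; Cd163 and Timd4 were not measured. Without PCL1, 8 of the 18 were called, all higher, beside 3.01% of all genes called higher. Among them were Slc40a1, the iron exporter (2.47, adjusted p = 0.179, and 3.54, adjusted p = 0.0012, without PCL1), Mrc1 (1.73, adjusted p = 0.209, and 0.0114 without PCL1) and Msr1 (1.70, adjusted p = 0.162, and 0.0203 without PCL1). Granulocyte markers were higher in 11 of 13 (median 0.56, and 1.11 without PCL1), with PCL2 far above the rest at 2.58, and their summed signal overlapped, at 95.8 to 111 in PCL and 82.5 to 98.7 in BL, with Cxcr2 and Mmp8 not measured. T cell markers were lower in 8 of 14 (median -0.11, and -0.33 without PCL1), with summed signals of 25.5 to 39.5 and 35.1 to 46.4 and Cd8a, Bcl11b and Trat1 not measured. The T cell median turned to 0.12 without BL1 and to 0.11 without BL3. In the dendritic cell and epithelium lists all 4 PCL tumours, PCL1 included, had medians above all BL tumours. Dendritic cell markers were higher in 7 of 9 (median 0.55, tumour medians 0.04 to 0.59 against -0.37 to -0.02, summed signals 102 to 134 against 86.2 to 109), with Xcr1, Clec9a, Cd209a and Ccl22 not measured. Epithelial markers were higher in 5 of 5 (median 0.50, summed signals 1.06 to 3.63 against 0.222 to 0.846), with Epcam, Krt19, Cdh1, Cldn4 and Muc1 not measured. The largest of these differences was that of Krt18 (2.94, limma adjusted p = 0.248), at -0.34 to 1.67 in PCL and -5.12 to -0.85 in BL. Krt18 alone made up most of each PCL sum, and dim genes in general leaned to PCL. Fibroblast and reticular stroma markers were higher in 8 of 9 (median 0.55) with overlapping tumours and summed signals of 1.77 to 4.79 and 0.689 to 6.07, and 8 of their 17 markers, Pdgfra and Pdgfrb among them, were not measured. No marker of the granulocyte, T cell, dendritic cell, epithelium or fibroblast lists was called by limma; at an unadjusted p under 0.05 they held 1, 1, 2, 1 and 0 higher and 1, 1, 0, 0 and 0 lower. The part of these cells in the results was not tested.

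Many of the genes that fell lay on chromosomes 6 and 7. Chromosome 6 carried 5.06% of tested genes but 40.8% of those that fell, 20 genes or 2.14% of its 936 tested genes, and chromosome 7 carried 7.86% of tested genes and 16.3% of the falls. Of the 45 named genes that fell, 19 were on chromosome 6 and 8 on chromosome 7, among them Ccnd2, Bid, Ezh2, Itpr2 and Mdfic on 6 and Prkcb, Spib, Il4i1, Tgfb1 and Hspb6 on 7. By contrast 2 of the 68 named genes that rose lay on either. On chromosome 6 the named genes that fell started between 15.8 and 146.1 megabases (mm9), so they were spread along it. The shift was shared by uncalled genes: among brighter genes (above the median signal) 80.2% on chromosome 6 were lower in PCL, with a median of -0.64, and 77.8% on chromosome 7, with a median of -0.42. Per tumour, the chromosome 6 median was -0.37, -0.45 and -0.46 in PCL2 to PCL4, 0.10 in PCL1, 0.61 in BL1 and 0.15 to 0.19 in the other BL tumours, and that of chromosome 7 was -0.47 to -0.08 in PCL2 to PCL4, 0.05 in PCL1 and 0.09 to 0.26 in BL. PCL1 lay between the groups on both. DNA copy number was not measured. Single tumours departed elsewhere too, with chromosome 10 at -0.60 and chromosome 5 at 0.40 in BL1, and chromosome 11 at -0.42 in BL3.

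**Figure D3:**
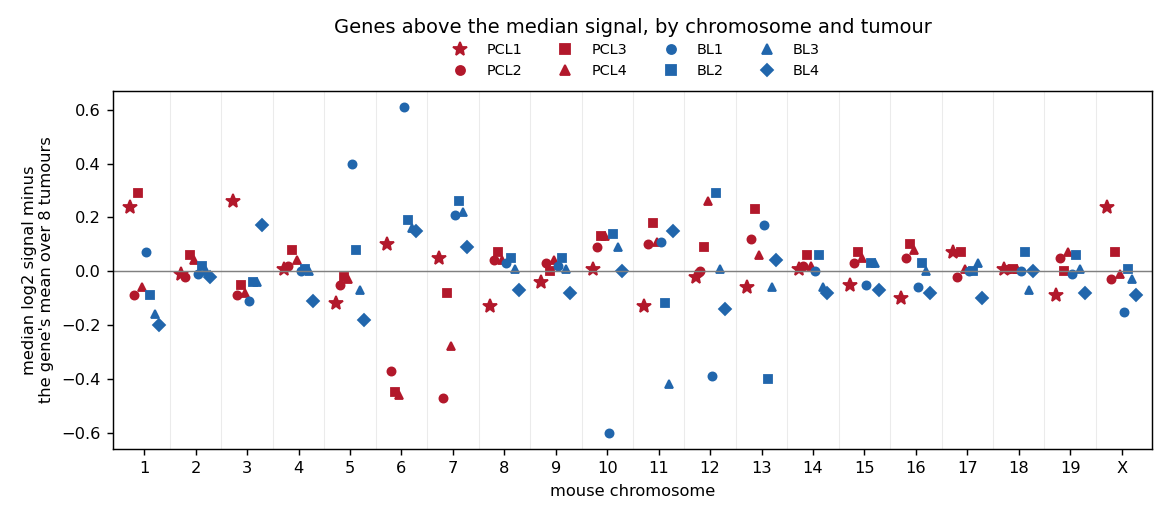
Median level of the brighter genes of each mouse chromosome in each tumour, after the mean of each gene across the 8 arrays was subtracted (log2 units, vertical axis); PCL tumours are red, with PCL1 as a star, and BL tumours blue. On chromosome 6 PCL2, PCL3 and PCL4 lie at -0.46 to -0.37 and all BL tumours at 0.15 or above.

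Several pathway lists leaned to BL more strongly on these chromosomes than elsewhere. The 6 Polycomb members on chromosomes 6 and 7 were all lower, with a median of -0.92; the others were lower in 19 and higher in 7, with a median of -0.19, and 0 of those were called. The 5 NF-kB members there, among them Bcl3 and Nfkbid, had a median of -0.70, and elsewhere 10 were lower and 3 higher, with a median of -0.45. For B cell receptor signalling the medians were -1.44 over 3 genes and, elsewhere, -0.38 over 18 lower and 3 higher genes. The cyclins and CDKs went from -1.21 over 6 genes to -0.23 elsewhere, mitosis from -0.78 over 6 genes to -0.19, and mature B cell identity from -0.65 over 5 genes to -0.07. The circadian clock went from -1.37 over 5 genes to -0.16 elsewhere, and the BCL2 family from -1.08 over 7 genes to -0.05. DNA repair genes, 22 higher and 24 lower in all, divided by position: the 10 on these chromosomes were all lower (median -0.74), and of the others 22 were higher and 14 lower (median 0.08). Glycolysis divided along the same line, with 8 of 9 genes on chromosomes 6 and 7 lower (median -0.47) and 15 of 17 elsewhere higher (median 0.53). ER chaperones had 1 member there, and elsewhere 22 were higher and 3 lower, with a median of 0.44.

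Agreement between single tumours was described by leaving out 1 PCL and 1 BL tumour together, taking the 200 genes with the lowest p in the remaining tumours, and counting how many had the same direction in the pair left out. In the 12 pairs without PCL1 81% to 95.5% of those genes kept their direction, against 61.4% to 68.6% of all genes. In the 4 pairs with PCL1 57% to 70% did, against 50.7% to 55.3% of all genes. The lowest share was that of PCL1 with BL4. The left-out tumours shared slides with the tumours that chose the genes.

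**Figure D4:**
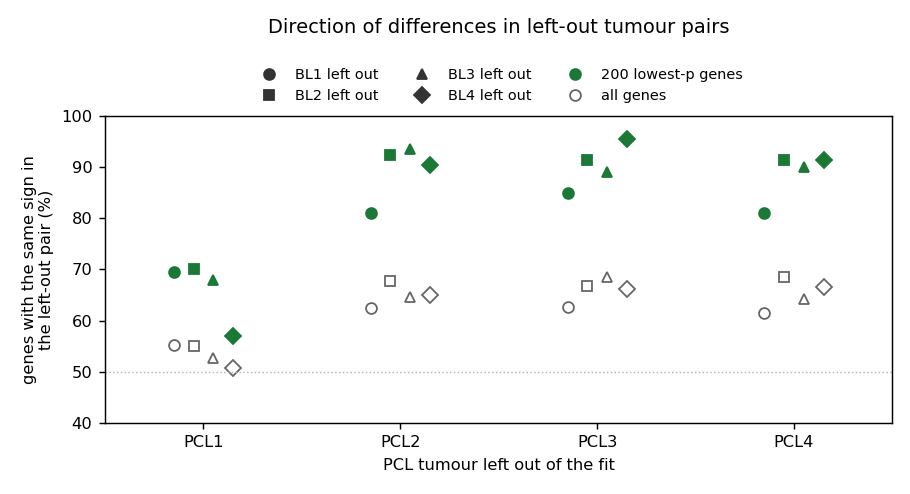
Share of genes (percent, vertical axis) whose difference in a left-out PCL and BL tumour had the same sign as in the remaining tumours, by left-out PCL tumour (horizontal axis) and left-out BL tumour (marker shape). Filled green markers are the 200 genes with the lowest p and open grey markers all genes; the PCL1 pairs lie at 57% to 70% and the others at 81% or above.

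Under 20 other settings of processing, fit and left-out tumour, 7 named genes kept their call in every setting that tested them. Those that rose were Prss12 (probe at chr3:123209409-123209468, mm9, tested in 19), Map3k15 (chrX:156560393-156560523) and Apoc2 (chr7:20257027-20257086), all on the positions the array files give. Those that fell were Bid (chr6:120843464-120843523), Tgfb1 (chr7:26489877-26489936), Setd5, a chromatin protein (-1.34, adjusted p = 0.0095; chr6:113103335-113103394), and Arpc4, a subunit of the Arp2/3 actin nucleator (-1.13, adjusted p = 0.0095; chr6:113339343-113339402). Each of the 4 that fell lay on chromosome 6 or 7. Arpc4 had SDs of 0.06 in both types (n = 4 each), and Prss12 of 0.90 in PCL and 1.36 in BL (n = 4 each). The difference was many times the spread between tumours in both.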

How the data were processed

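RNA of 11 tumours was hybridised to single-colour mouse arrays. Per the file headers, the authors extracted spots with Agilent Feature Extraction 10.7.3.1, which gave deposited intensity values (processed signals, background-subtracted and detrended within each array); probe positions are mm9. The authors also deposited a log2 value table, used as an alternative; its normalisation is not given in these sources. The log2 of the processed signal minus that of each array's 75th percentile was used. Control spots and outlier spots were left out, and spots of a probe were averaged. Probes well above background on 4 or more of the 8 PCL and BL arrays were kept (23268 of 39429 probes), and the brightest probe stood for a gene. limma 3.58.1 (R 4.3.3) fitted a mean per lymphoma type over 11 arrays (8 residual degrees of freedom, median SE 0.277), with Benjamini-Hochberg adjustment over all genes. The script was tested on simulated data.

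Named are the 15 called genes with the largest difference in each direction, called members of lists and families, up to 3 members of each list with the lowest p, calls kept under every alternative, Myc, Trp53 and direct relatives. Not all of them are printed, and some genes are not reported here. The label check also prints defining markers. The members and lists were chosen with earlier results of these data known. Alternatives covered background correction, scaling, the authors' values, filters, flagged spots, samples in the fit, array weights, variance prior, probe choice, array position and leaving out each tumour. The number of arrays limits the precision. Promoters came from RefSeq (GRCm38.p6).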

Additional observations from a re-analysis of the deposited data

Results flagged for a closer look

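Among 324 groups of 4 tumours (values of named genes and tumour medians of lists), 23 held a tumour whose gap to its nearest neighbour was large for the range of its group, or 7.1%; chance flags about 1 in 20. PCL1 was that tumour in 12 of them.

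PCL1 lay low for Trim63 (-5.40, nearest PCL tumour 1.84), Tdrd9 (-3.81 against 1.46), Arap3 (-2.02 against 1.27), Rd3l (3.38 against 5.84), Tnfrsf21 (-4.13 against -1.94), Slc40a1 (-4.83 against -0.80), Itgb5 (-1.47 against -0.11) and Trp53, the gene of which these mice carry a single intact copy (-2.38 against -0.19). Its median over the solute carriers was also low (-0.01 against 0.11). It lay high for Ly6d (5.24 against 4.65), the MHC class II gene H2-Eb2 (1.34 against 0.34) and the median of NF-kB subunits and targets (0.00 against -0.30). Among the other PCL tumours, PCL3 was low for Slc3a1 (-3.60 against -3.08) and PCL2 for the medians of mature B cell identity (-0.31 against -0.11) and of the Notch pathway (-0.09 against 0.16).

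In BL, BL3 was high for Itga9 (-3.78, nearest BL tumour -6.94) and for the medians of the macrophage markers (-0.37 against -0.98) and ribosomal proteins (0.12 against -0.16). BL4 was high for Hey1 (-5.37 against -7.62) and Rag2 (-1.80 against -7.77), BL2 for Kdm5b (-0.21 against -1.38) and BL1 for Pls1 (-5.57 against -8.12). BL1 was low for Ahnak (2.09 against 2.77).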

How the results depend on the processing

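The count of called genes was 136. It was 15 with normexp background correction, 642 with arrays set to their median, 82 without a filter on dim probes, 79 with probes well above background on all 8 arrays and 2290 with array quality weights. With PCL1 left out 1120 genes were called, with PCL2 left out 10, with PCL3 left out 30 and with PCL4 left out 22; the counts were 111, 32, 39 and 56 when BL1, BL2, BL3 or BL4 was dropped. The array position as a replicate block gave 71. Correlations of same-numbered tumours, as deviations from the mean of their type, ran from -0.07 to 0.182. Differently numbered tumours were not compared in this way, so whether the numbers pair the tumours was not tested. The other settings stayed within 1.5 times in count, but not always with the same genes. Of the 136 called genes, 88 stayed called with only PCL and BL arrays in the fit and 66 without BL1. After quantile normalisation 103 stayed called, and 105 in the authors' deposited values. With flagged spots kept, a variance trend or a mean of probes, 126 to 136 stayed called. None of 52 named called genes changed direction: of 1020 repeats, 650 kept the call and 370 lost it. Among 71 uncalled genes 21 repeats changed sign, all for genes with small differences. Median scaling gave Lcp1 -0.09, Myc -0.01, Uchl3 -0.11, Uchl5 -0.19 and Pax5 -0.25; Pax5 was -0.02 after quantile normalisation and in the authors' deposited values and -0.06 as a mean of probes. With 1 tumour left out Cd79b ranged from -0.18 to 0.23, Lcp1 from -0.01 to 0.28, Myc from -0.01 to 0.47, Pax5 from -0.13 to 0.16, Suz12 from -0.54 to 0.01 and Uchl5 from -0.10 to 0.43. Of 28 lists with a median of 0.2 or more in size, 5 changed sign: ribosomal proteins, nucleolar genes and solute carriers (each -0.07) and glycolysis (-0.05) under median scaling, and granulocyte markers (-0.15) without BL1. The causes were not tested. The number of tumours and the weak signal of dim probes limit what could be called.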
